A study of Mus musculus with 6 samples.

Results

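Bone morphogenetic protein (BMP) signalling was examined through 10 genes in mouse embryonic stem cells rescued by a coelacanth or a mouse POUV protein. They were the ligand genes Bmp2, Bmp4, Bmp7 and Bmp8b, the transducer Smad1, the inhibitory Smad6, and 4 Id genes, Id1, Id2, Id3 and Id4. Members were taken by symbol, as every array probe whose RefSeq transcript belongs to 1 of these genes. That gave 12 probes of 55681 on the array, and 9 of the 10 genes were among the 14595 genes tested.

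BMP ligands bind pairs of type I and type II serine/threonine kinase receptors, which phosphorylate SMAD1, SMAD5 and SMAD9. These join SMAD4 and enter the nucleus, where the Id genes are among the most direct targets. ID proteins lack a DNA-binding region and hold E proteins and other bHLH factors in inactive dimers. In mouse embryonic stem cells, BMP4 or serum together with the cytokine LIF sustains self-renewal, and ID proteins restrain neural differentiation. Bmp8b is expressed in the extraembryonic ectoderm, a derivative of the trophectoderm.

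The cells were ZHBTc4, a mouse embryonic stem cell line whose resident Oct4 comes from a transgene that tetracycline shuts off. All 6 lines were made by electroporating a pCAG-IP-POUV plasmid and plating with 2 µg/mL of tetracycline present. Selection with 1 µg/mL of puromycin began on day 2 and colony picking on day 9, in medium with LIF and 10% fetal bovine serum and no added BMP listed. The rescuing protein was coelacanth POU5F1 (LcPOU5F1, clones 4 and 5), coelacanth POU5F3 (LcPOU5F3, clones 1 and 2) or mouse OCT4 (mOct4, clones 1 and 2). Each clone is 1 stable line and gave 1 one-colour Agilent array, so every group has n = 2, and p-values measure the spread between these clones.

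Levels are log2 intensities minus the array's 75th percentile, so 0 is the brightness of the spot at that percentile. They compare arrays for 1 probe, not 1 gene with another. A gene is called where limma gives an adjusted p (Benjamini-Hochberg over all 14595 genes) under 0.05. Well above background were 48.1% and 43.67% of probes in the LcPOU5F1 clones, 43.45% and 53.34% in the LcPOU5F3 clones, and 57.53% and 57.82% in the mOct4 clones. The 1 probe of Pou5f1, the mouse Oct4 gene, exceeded background clearly in the 2 mOct4 clones and in 0 of the 4 coelacanth-rescued ones. Its position in the transcript was not used here, so it cannot tell the mOct4 plasmid from the resident gene. Of 10 embryonic stem cell markers all 10 were well above background on every array, with a summed level of 734 and 803 times the 75th percentile in the LcPOU5F1 clones, 299 to 434 in the LcPOU5F3 clones, and 804 to 904 in the mOct4 clones. Bulk RNA cannot tell fewer cells of a type from less RNA per cell.

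**Figure D1:**
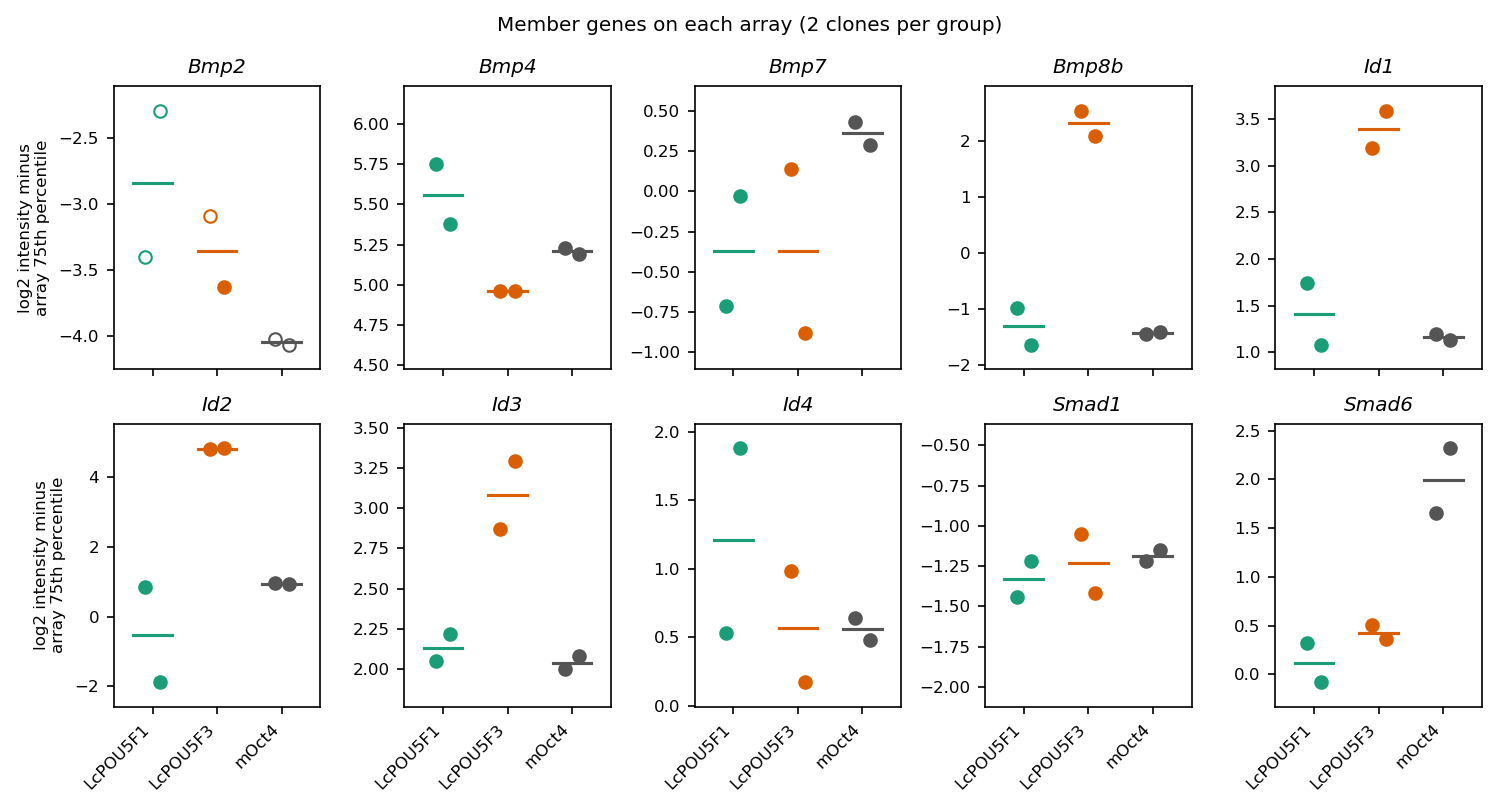
Level of each member on the 6 arrays, as log2 intensity minus the array's 75th percentile. Points are clones, filled where the probe was well above background and open where not, and bars are group means. Bmp4 and Smad1 are shown by their brighter probe. Id1, Id2, Id3 and Bmp8b are high in both LcPOU5F3 clones, and Smad6 is high in both mOct4 clones.

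Id1, Id2 and Id3 separated the LcPOU5F3 clones from the other 4 arrays. Id1, Id2 and Id3 rose in the LcPOU5F3 clones relative to the mOct4 clones, by 4.7-fold, 14.8-fold and 2.06-fold, while Id4 did not pass the test. Relative to the mOct4 clones, none of the 4 passed in the LcPOU5F1 clones. In all, limma called 5 of the 9 tested members for LcPOU5F3 against mOct4, 4 higher and 1 lower, beside 23.6% of all genes. Of all genes 11.8% were called higher and 11.8% lower.

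Id1, the Id gene often used as a readout of BMP signalling, stood at 1.74 and 1.08 in LcPOU5F1 clones 4 and 5, 3.19 and 3.59 in LcPOU5F3 clones 1 and 2, and 1.19 and 1.13 in mOct4 clones 1 and 2. Both LcPOU5F3 clones lay at least 2.00 log2 units above either mOct4 clone, and the LcPOU5F1 range covered the mOct4 clones. The log2 fold change was 2.23 ± 0.28 (SE) for LcPOU5F3 against mOct4 (limma adjusted p = 0.01) and 0.25 ± 0.28 for LcPOU5F1 against mOct4 (adjusted p = 0.67, 95% interval -0.45 to 0.95).

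Id2, which is also expressed in the trophoblast lineage, had the widest spread over the 6 arrays of any tested member (SD 2.62). It stood at 0.84 and -1.89 in the LcPOU5F1 clones, 4.82 and 4.84 in the LcPOU5F3 clones, and 0.95 and 0.94 in the mOct4 clones. The LcPOU5F3 clones and the mOct4 clones each agreed within 0.02 log2 units, whereas LcPOU5F1 clone 5 lay far below clone 4. The log2 fold change for LcPOU5F3 against mOct4 was 3.89 ± 0.86 (limma adjusted p = 0.034). With no filter on dim probes it did not pass (limma adjusted p = 0.069). It did not pass without LcPOU5F3 clone 1 (adjusted p = 0.054) or LcPOU5F3 clone 2 (0.074). Its standard error pools the 3 groups, and nearly all of that spread comes from the LcPOU5F1 clones (SD 1.93, against 0.02 in LcPOU5F3 and 0.01 in mOct4). For LcPOU5F1 against mOct4 it was -1.47 ± 0.86 (adjusted p = 0.45). That value was -0.10 without LcPOU5F1 clone 5 and -2.83 without LcPOU5F1 clone 4, so 1 clone decides it.

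Id3, like Id1 a direct BMP target, moved less. Its level was 2.05 and 2.22 in the LcPOU5F1 clones, 2.87 and 3.29 in the LcPOU5F3 clones, and 2.00 and 2.08 in the mOct4 clones. The LcPOU5F3 clones lay above all 4 other arrays, and the other 4 lay within 0.22 of one another. The log2 fold change was 1.05 ± 0.20 for LcPOU5F3 against mOct4 (limma adjusted p = 0.023) and 0.10 ± 0.20 for LcPOU5F1 against mOct4 (adjusted p = 0.82). The former did not pass with no filter on dim probes (limma adjusted p = 0.061) or with median centring (0.086).

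Id4, best known from the developing nervous system, did not follow the other 3. It stood at 0.53 and 1.88 in the LcPOU5F1 clones, 0.98 and 0.17 in the LcPOU5F3 clones, and 0.64 and 0.48 in the mOct4 clones. The groups overlapped, and LcPOU5F1 clone 5 was the single high array, the same clone in which Id2 was lowest. The log2 fold change of LcPOU5F3 against mOct4 was 0.01 ± 0.51, with a 95% interval from -1.28 to 1.31 that leaves room for a change as large as that of Id3.

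The Id2 and Id3 promoters are printed because these members rose together in the LcPOU5F3 clones and RefSeq windows for both were at hand. RefSeq (GRCm38.p6) promoter windows were matched for 7 of the 10 members, all but Bmp2, Bmp7 and Id1. Each shows the 250 bases before the gene's start, 5′ to 3′ on the gene's strand, at chr12:25096093-25096342 (minus strand) for Id2 and chr4:136143572-136143821 (plus strand) for Id3. Capitals mark every match, on either strand, to GGCGCC, a GC-rich site of SMAD1 and SMAD5 in BMP-responsive elements, to GTCT (AGAC on the other strand), the short SMAD4 site, or to CAGCTG, an E box that bHLH dimers bind.
Id2: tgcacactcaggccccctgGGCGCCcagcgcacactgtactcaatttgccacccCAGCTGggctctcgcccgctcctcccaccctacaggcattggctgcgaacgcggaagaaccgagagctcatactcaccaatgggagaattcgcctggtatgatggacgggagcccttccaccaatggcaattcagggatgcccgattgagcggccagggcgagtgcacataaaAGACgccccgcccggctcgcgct
Id3: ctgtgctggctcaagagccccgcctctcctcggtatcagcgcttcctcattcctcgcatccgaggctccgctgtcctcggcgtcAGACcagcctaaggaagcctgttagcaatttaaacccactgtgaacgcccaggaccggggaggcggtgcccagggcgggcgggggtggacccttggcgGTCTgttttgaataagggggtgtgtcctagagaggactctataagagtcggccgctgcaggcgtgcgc
The Id2 window holds 1 GGCGCC, 1 GTCT and 1 CAGCTG. The Id3 window holds 2 GTCT and neither of the other motifs. That of Id4, which did not pass the test, is not printed and also holds 1 GGCGCC, with no GTCT or CAGCTG. Of 32851 windows of the same length, 9.59% hold GGCGCC, 82.9% hold GTCT and 13% hold CAGCTG. None of these motifs overlaps another in the Id2 or the Id3 window, and a match is a description of the letters, not a site shown to be used.

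Among the ligands, Bmp8b changed and Bmp4 and Bmp7 did not pass the test. Bmp8b, a ligand of the extraembryonic ectoderm that takes part in inducing germ cell precursors, stood at -0.97 and -1.63 in the LcPOU5F1 clones, 2.55 and 2.10 in the LcPOU5F3 clones, and -1.44 and -1.41 in the mOct4 clones. Both LcPOU5F3 clones lay at least 3.50 log2 units above either mOct4 clone, while the LcPOU5F1 clones fell on both sides of them. It rose 13.4-fold in LcPOU5F3 against mOct4 (log2 fold change 3.75 ± 0.28, limma adjusted p = 0.0051). For LcPOU5F1 against mOct4 the log2 fold change was 0.12 ± 0.28 (adjusted p = 0.84). Its near-identical neighbour Bmp8a rose as well, 4.19-fold (2.07 ± 0.29, adjusted p = 0.013). Probes of these copies may read each other, so the split between them is uncertain.

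The Bmp8b promoter is shown as that of the member with the smallest p in the LcPOU5F3 against mOct4 comparison. It lies at chr4:123104911-123105160 (plus strand), and its 2 capital stretches are both GTCT read on the other strand.
Bmp8b: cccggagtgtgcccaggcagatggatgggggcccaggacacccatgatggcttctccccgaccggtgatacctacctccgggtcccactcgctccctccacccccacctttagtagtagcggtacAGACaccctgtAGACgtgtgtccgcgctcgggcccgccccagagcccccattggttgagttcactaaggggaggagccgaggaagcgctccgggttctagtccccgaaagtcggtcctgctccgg
No GGCGCC or CAGCTG was found in this window.

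Bmp4, the ligand that serum-free stem cell culture adds beside LIF, was read by 2 probes. The brighter stood at 5.75 and 5.38 in the LcPOU5F1 clones, 4.96 and 4.96 in the LcPOU5F3 clones, and 5.23 and 5.19 in the mOct4 clones. The 3 groups did not overlap, with LcPOU5F1 highest and LcPOU5F3 lowest, but the steps were small: 0.35 ± 0.18 for LcPOU5F1 against mOct4 (limma adjusted p = 0.4) and -0.25 ± 0.18 for LcPOU5F3 against mOct4 (adjusted p = 0.35). The 95% interval for LcPOU5F3 against mOct4, -0.69 to 0.20, leaves out a change of 2-fold. The second Bmp4 probe was well above background on 0 of 6 arrays and was not tested.

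Bmp7, a ligand with broad roles in epithelia, stood at -0.71 and -0.03 in the LcPOU5F1 clones, 0.14 and -0.88 in the LcPOU5F3 clones, and 0.43 and 0.29 in the mOct4 clones. All 4 coelacanth-rescued clones lay below both mOct4 clones. The log2 fold change was -0.73 ± 0.40 both for LcPOU5F1 against mOct4 (limma adjusted p = 0.43) and for LcPOU5F3 against mOct4 (adjusted p = 0.24). Without LcPOU5F3 clone 1, the LcPOU5F3 value was -1.24 and passed (adjusted p = 0.042). Bmp2, which patterns the early mesoderm and heart, was well above background on 1 array, that of LcPOU5F3 clone 2. Its single probe read -3.40 and -2.29 in the LcPOU5F1 clones, -3.09 and -3.63 in the LcPOU5F3 clones, and -4.03 and -4.07 in the mOct4 clones. The lowest signal counted as well above background was -2.71 and -2.39 in the LcPOU5F1 arrays, -2.38 and -3.93 in the LcPOU5F3 arrays, and -3.80 and -3.60 in the mOct4 arrays, so these readings carry no order.

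Of the SMAD genes, Smad6 was lower in every coelacanth-rescued clone than in either mOct4 clone. Smad6 encodes an inhibitory SMAD that blocks BMP receptor signalling and is itself induced by BMP. It stood at 0.32 and -0.08 in the LcPOU5F1 clones, 0.51 and 0.36 in the LcPOU5F3 clones, and 1.66 and 2.32 in the mOct4 clones. The 4 coelacanth-rescued clones lay within 0.59 log2 units of one another, and the nearest of them was 1.15 below the lower mOct4 clone. It fell 2.94-fold in LcPOU5F3 against mOct4 (log2 fold change -1.55 ± 0.28, limma adjusted p = 0.021). With no filter on dim probes that fall did not pass (limma adjusted p = 0.051). For LcPOU5F1 against mOct4 the difference was larger in size, -1.87 ± 0.28 and the limma adjusted p was 0.12 (unadjusted p = 0.00097). Fitted on those 4 arrays alone, or without either LcPOU5F3 clone, its adjusted p was 0.048. The mOct4 arrays serve both comparisons, and their 2 clones were the pair that varied most for this gene (SD 0.47). In the LcPOU5F3 clones Smad6 was lower where Id1, Id2 and Id3, also induced by BMP, were higher.

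The Smad6 promoter is printed for comparison with those of Id2 and Id3, at chr9:64022060-64022309 (minus strand). It holds 1 GTCT, whose last base is the one before the gene's start, and no GGCGCC or CAGCTG.
Smad6: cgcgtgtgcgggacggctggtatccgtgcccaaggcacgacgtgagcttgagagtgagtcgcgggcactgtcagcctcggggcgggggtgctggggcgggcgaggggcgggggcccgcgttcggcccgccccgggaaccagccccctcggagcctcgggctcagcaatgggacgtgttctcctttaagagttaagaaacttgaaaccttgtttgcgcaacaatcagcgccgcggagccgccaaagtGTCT

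Smad1, the transducer that BMP receptors phosphorylate, had the smallest spread over the 6 arrays of the tested members (SD 0.15 for its brighter probe). Its brighter probe stood at -1.44 and -1.22 in the LcPOU5F1 clones, -1.05 and -1.42 in the LcPOU5F3 clones, and -1.22 and -1.15 in the mOct4 clones. The groups overlapped, and the log2 fold change was -0.15 ± 0.19 for LcPOU5F1 against mOct4 and -0.05 ± 0.19 for LcPOU5F3 against mOct4. A second Smad1 probe, with both LcPOU5F1 clones lowest, gave -0.43 ± 0.19 and 0.11 ± 0.19 when every kept probe was fitted, and neither passed (limma adjusted p = 0.43 and 0.73).

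**Figure D2:**
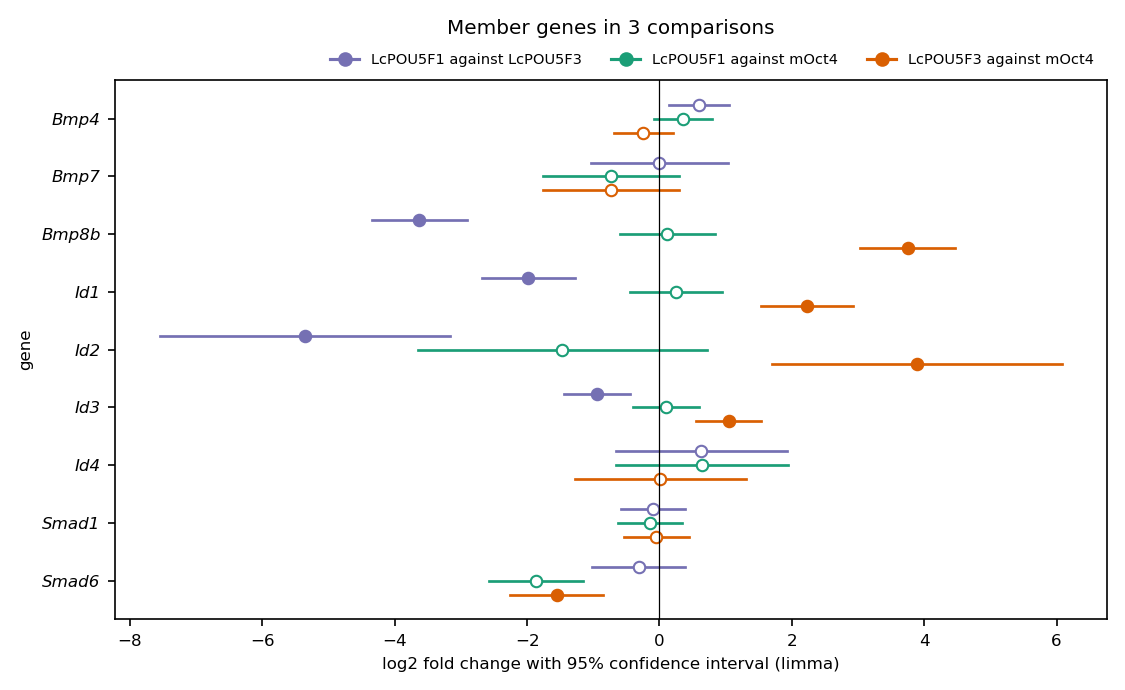
Log2 fold change of the 9 tested members in the 3 comparisons, with 95% confidence intervals from limma. Filled points passed at adjusted p under 0.05. Bmp8b, Id1, Id2 and Id3 passed in both comparisons that hold LcPOU5F3, and Smad6 passed for LcPOU5F3 against mOct4.

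With LcPOU5F1 against mOct4, limma called 0 of the 9 tested members, and 1, Smad6, had an unadjusted p under 0.05. Over all genes 0.0343% were called and 2265 of 14595 had an unadjusted p under 0.05. The median log2 fold change of the 9 members was 0.10, and that of all genes was also 0.10. For LcPOU5F3 against mOct4 the medians were 0.01 and -0.09.

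A direct comparison of the coelacanth paralogs set LcPOU5F1 against LcPOU5F3, with the same LcPOU5F3 arrays as above. Limma called 4 of the 9 tested members, all lower in LcPOU5F1, beside 20.5% of all genes (9.98% lower). Id2 was 40.9-fold lower in LcPOU5F1 (log2 fold change -5.35 ± 0.86, adjusted p = 0.019). Its size rests on the clone: -3.99 without LcPOU5F1 clone 5 and -6.72 without LcPOU5F1 clone 4. Bmp8b was 12.3-fold lower (-3.63 ± 0.28), Id1 3.95-fold lower (-1.98 ± 0.28) and Id3 1.93-fold lower (-0.95 ± 0.20). Bmp4 was 0.60 ± 0.18 higher in LcPOU5F1 and did not pass (adjusted p = 0.069). Smad6 differed by -0.31 ± 0.28 and Id4 by 0.63 ± 0.51. With only these 4 arrays in the fit, Bmp8b alone passed, and Id1, Id2 and Id3 had an adjusted p of 0.058, 0.068 and 0.098; leaving out either mOct4 clone gave the same values. Id1 also failed without LcPOU5F1 clone 5 (adjusted p = 0.059), and Id3 without LcPOU5F3 clone 2, LcPOU5F1 clone 4 or LcPOU5F1 clone 5 (0.059, 0.13 and 0.11).

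The calls for LcPOU5F3 against mOct4 needed both mOct4 clones. Limma called 0 of 9 members without mOct4 clone 1 and 0 of 9 without mOct4 clone 2. Leaving out mOct4 clone 2 also restricts the fit to slide 1, since it alone was on slide 2. Within slide 1 the log2 fold changes were 3.76 for Bmp8b, 2.20 for Id1, 3.88 for Id2, 1.09 for Id3 and -1.22 for Smad6, with limma adjusted p from 0.074 to 0.17. Without mOct4 clone 1 they were 3.73, 2.26, 3.89, 1.00 and -1.88 in the same order. Over all genes 35 were called without mOct4 clone 1 and 41 without mOct4 clone 2, so the list counts that follow rest on both mOct4 clones too.

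The wider pathway was read through lists of its other genes. Each count for LcPOU5F3 against mOct4 stands beside 23.6% of all genes called, 11.8% higher and 11.8% lower, and a median of -0.09, and no list was tested against the other genes. Of 13 receptor and co-receptor genes 11 were tested, and 4 rose in LcPOU5F3 against mOct4 while none fell, beside 11.8% of all genes called higher. Bmpr1a, the type I receptor that carries most BMP signalling in embryonic stem cells, rose 2.11-fold (log2 fold change 1.08 ± 0.16, limma adjusted p = 0.014). The type II receptor gene Bmpr2 rose 3.69-fold (1.88 ± 0.38) and the co-receptor gene Tgfbr3 13.9-fold (3.80 ± 0.38). The fourth was Acvrl1, a type I receptor of endothelium, at 1.67-fold, named here after its value was seen. The list's median was 0.66, beside -0.09 for all genes.

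Bmpr1a stood at 1.98 and 1.90 in the LcPOU5F1 clones, 2.62 and 2.74 in the LcPOU5F3 clones, and 1.49 and 1.71 in the mOct4 clones, so the 3 groups did not overlap. In LcPOU5F1 against LcPOU5F3, 2 of the 11 tested receptor genes were lower and 1 higher, beside 20.5% of all genes called. Bmpr1a was 1.67-fold lower (adjusted p = 0.034), Tgfbr3 at least 9.86-fold lower and the activin type II receptor gene Acvr2b 1.86-fold higher (0.90 ± 0.18, adjusted p = 0.031). Neither LcPOU5F1 clone had Tgfbr3 well above background.

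Of 9 tested genes for extracellular antagonists and modulators, 3 rose, 1 fell and 5 did not pass in LcPOU5F3 against mOct4, beside 23.6% of all genes called (list of 18, median 0.74). Fst, the gene of follistatin, which binds activin and some BMPs, rose 9.54-fold (3.25 ± 0.37, limma adjusted p = 0.0087). Nbl1, a secreted BMP antagonist of the DAN family, rose 3.91-fold (1.97 ± 0.15). Bmp1, which despite its name encodes a metalloprotease that cleaves procollagens and the antagonist chordin, rose 6.48-fold (2.70 ± 0.21), with 2.65 and 0.29 on its other probes. The gene that fell was Nog, the noggin gene, at 2.31-fold (-1.21 ± 0.31, adjusted p = 0.048), named after its value was seen. Against LcPOU5F3, 4 of the 9 were lower in LcPOU5F1 and none higher, beside 9.98% of all genes called lower. They were Bmp1, Nbl1, Fst and Fstl1.

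Among 12 tested Smad genes and modulators of 15, 1 rose and 1 fell in LcPOU5F3 against mOct4 (median 0.30), a share no higher than the 23.6% of all genes called. Skil, whose protein SnoN represses SMAD targets, rose 1.87-fold (0.90 ± 0.22), with 0.49 on a second probe. Zfp423, a zinc finger partner of SMADs at BMP targets, fell 2.35-fold (-1.23 ± 0.20). The common Smad4 and the inhibitory Smad7 did not pass, at 0.32 ± 0.14 (limma adjusted p = 0.15) and -0.63 ± 0.22 (adjusted p = 0.097). Smad7 stood at 3.79 and 4.10 in the LcPOU5F1 clones, 3.40 and 2.96 in the LcPOU5F3 clones, and 3.71 and 3.92 in the mOct4 clones. Unlike Smad6, its LcPOU5F1 clones lay at the level of the mOct4 clones.

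Of 7 tested other ligand genes of 13, Bmp8a rose and Gdf15 fell in LcPOU5F3 against mOct4, a share near the 23.6% of all genes called. Gdf15, a distant family member induced by cellular stress, was 5.28-fold lower (-2.40 ± 0.41, limma adjusted p = 0.019). The list's median was -0.35.

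Of 14 tested genes of 15 in the list of other BMP-responsive genes, 5 rose in LcPOU5F3 against mOct4 and none fell, beside 11.8% of all genes called in each direction (median 0.36, against -0.09 for all genes). Msx2, a homeobox gene induced by BMP in many tissues, stood at -0.90 and -0.95 in the LcPOU5F1 clones, 2.19 and 2.40 in the LcPOU5F3 clones, and -0.95 and -0.99 in the mOct4 clones. It was 9.58-fold higher in LcPOU5F3 (3.26 ± 0.15, limma adjusted p = 0.0026), and the other 4 arrays lay together. Gata3 rose 15.6-fold, Gata2 10.7-fold and Tfap2a 10.7-fold. All 3 encode factors that also direct trophoblast development. The fifth was Nkx2-5 at 2.54-fold, named after its value was seen. The same 5 were lower in LcPOU5F1 than in LcPOU5F3, beside 9.98% of all genes called lower.

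Of 6 tested E protein and bHLH genes of 11, whose proteins ID proteins restrain, limma called 0 in LcPOU5F3 against mOct4, beside 23.6% of all genes, and 0 had an unadjusted p under 0.05. The log2 fold changes of the E protein genes were 0.01 ± 0.18 for Tcf3, -0.11 ± 0.22 for Tcf4 and 0.55 ± 0.28 for Tcf12. Second probes of these genes gave -0.43, 0.02 and 0.69 in the same order. In LcPOU5F1 against LcPOU5F3, 1 of the 6 was called, beside 20.5% of all genes. It was Hand1, a trophoblast and heart bHLH gene, 6.91-fold lower in LcPOU5F1 (adjusted p = 0.047). Over these 6 lists and a neuroectoderm list, with 67 tested genes counted list by list, limma called 0 for LcPOU5F1 against mOct4. Of the 67, 16 had an unadjusted p under 0.05. Over all genes 0.0343% were called and 2265 of 14595 had an unadjusted p under 0.05.

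**Figure D3:**
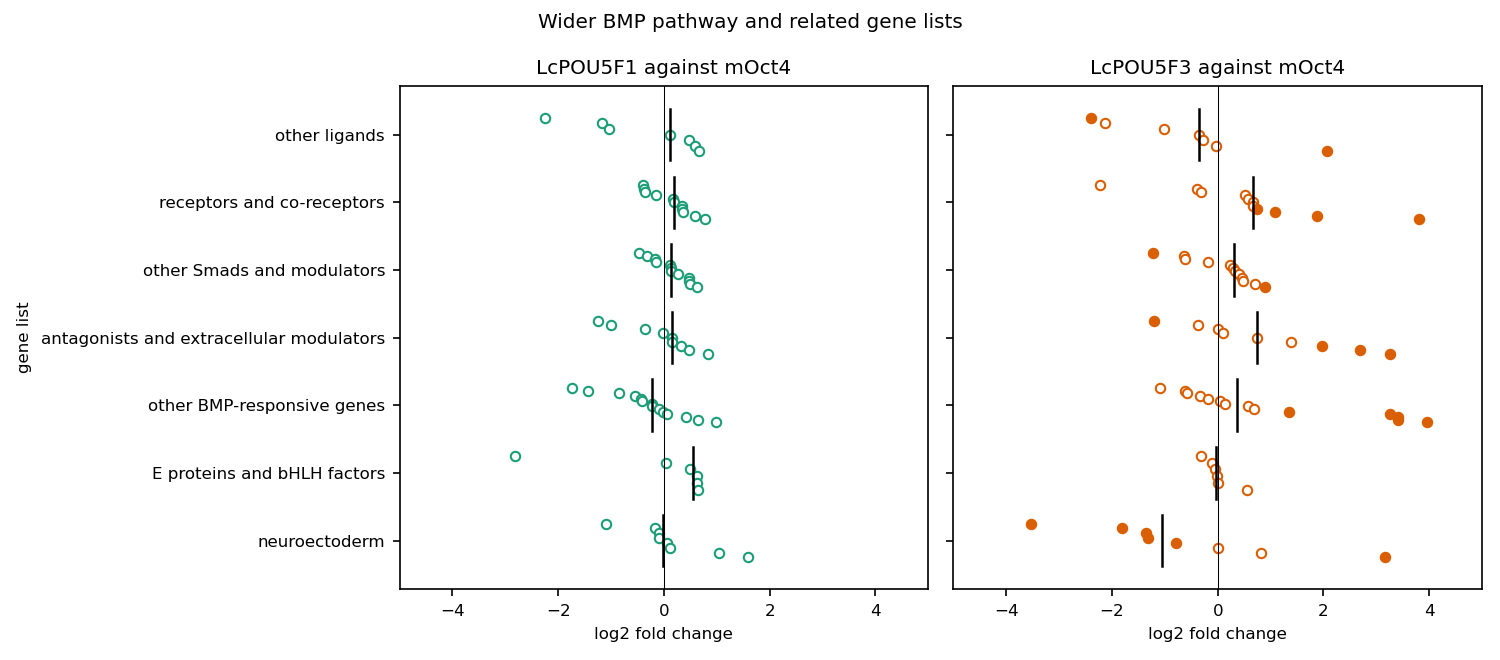
Log2 fold change of each tested gene of 7 lists, for LcPOU5F1 against mOct4 (left) and LcPOU5F3 against mOct4 (right). Points are genes, filled where adjusted p was under 0.05, and black bars are list medians. No point is filled on the left, and on the right all filled receptor and BMP-responsive genes lie above 0.

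Some markers of other cell types moved with the Id genes. Of 10 trophectoderm markers, 8 and 6 were well above background in the LcPOU5F1 clones, 9 and 9 in the LcPOU5F3 clones, and 9 and 8 in the mOct4 clones. Their summed level was 32.2 and 23.6 times the 75th percentile in the LcPOU5F1 clones, 521 and 543 in the LcPOU5F3 clones, and 35.3 and 35.8 in the mOct4 clones. Krt8 and Krt18 make up most of that sum in the LcPOU5F3 clones: over the other 8 markers it was 16.1 and 13.9 in the LcPOU5F1 clones, 61.1 and 56.3 in the LcPOU5F3 clones, and 24.6 and 25.8 in the mOct4 clones, a sum added after seeing the data. Elf5 stayed near background on all 6 arrays. Of the 9 tested, 6 rose and 1 fell in LcPOU5F3 against mOct4, beside 11.8% of all genes called in each direction. Krt7, counted among the 6, passed the filter on dim probes only through the LcPOU5F3 clones, where it was high. Krt8 was 56.5-fold and Krt18 43.6-fold higher. Eomes fell 4.07-fold (-2.02 ± 0.39, limma adjusted p = 0.024), and Hand1 (-0.02 ± 0.69) and Tfap2c (0.05 ± 0.18) did not pass. These 3 were named after their values were seen. Gata3, Hand1 and Tfap2c stand both in this list and in those above. Among 8 primitive endoderm markers the sum was 15.4 and 19.4 in the LcPOU5F1 clones, 45.7 and 50.5 in the LcPOU5F3 clones, and 12.5 and 11.1 in the mOct4 clones. Among 8 fibroblast or mesenchyme markers it was 15.5 and 35.3, 43.4 and 107, and 24.6 and 29.1 in the same order of groups, with Postn not well above background on any of the 6 and Col1a1 not on the 4 coelacanth-rescued ones. T, Mixl1 and Mesp1, 3 of the 6 mesoderm markers, stayed near background throughout. The mesoderm sum was 8.41 and 7.37, 7.11 and 6.08, and 9.3 and 11.9 in the same order of groups. Of 3 tested mesoderm markers 1 fell in LcPOU5F3 against mOct4, Eomes, which is also in the trophectoderm list, and none rose. In LcPOU5F3 against mOct4, 2 of 5 tested primitive endoderm markers and 3 of 7 tested fibroblast or mesenchyme markers rose, and none fell. Among them Tagln rose 49.7-fold and Dab2 at least 20-fold. Dab2 passed the filter on dim probes only through the LcPOU5F3 clones, where it was high. Lamb1 made up most of the primitive endoderm sum in those clones (5.04 and 5.21) and rose 4.99-fold. Gata4, Sox17 and Col4a1 did not pass, at 0.52 ± 0.37, 0.32 ± 0.21 and 1.34 ± 0.47. Gata6, Sox17, Sox7 and Foxa2 were not well above background in LcPOU5F3 clone 1, nor were Sox7 and Foxa2 in LcPOU5F3 clone 2. The part of these markers in the Id and Bmp8b differences was not tested.

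**Figure D4:**
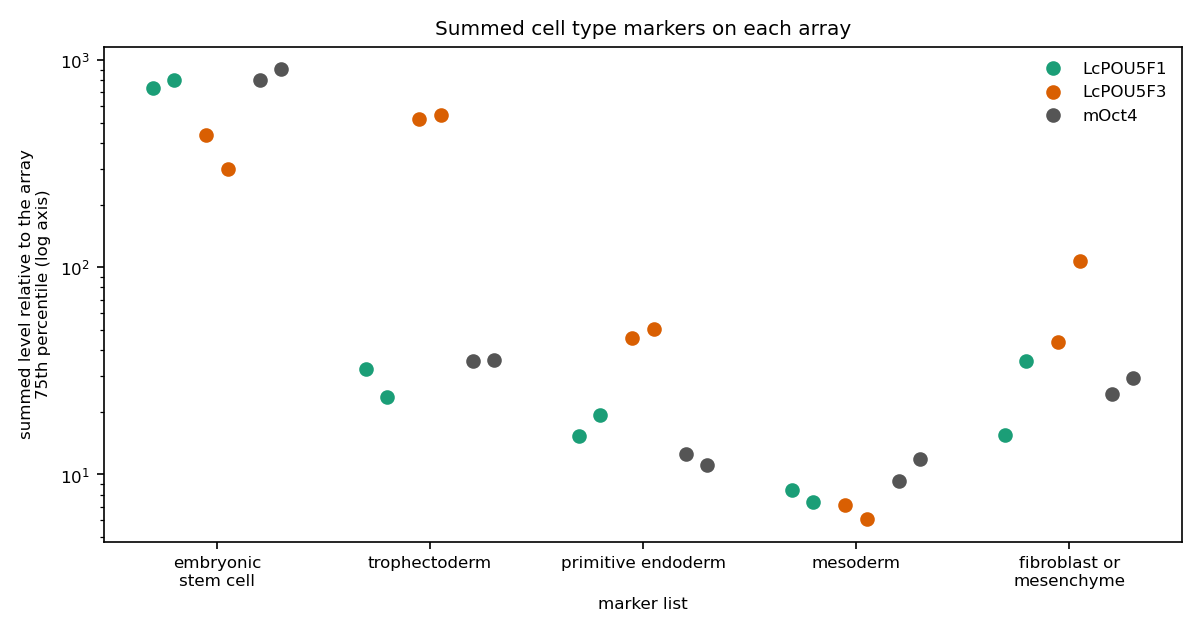
Summed level of each marker list on each array, relative to the array's 75th percentile, on a log axis. Points are clones. The trophectoderm sum is 521 and 543 in the LcPOU5F3 clones and below 36 on the other 4 arrays, while the embryonic stem cell sum is lowest in the LcPOU5F3 clones.

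Some genes outside the pathway had profiles close to those of the members. Likeness was the root mean square difference between mean-centred log2 profiles over the 6 arrays, searched over 11186 named genes well above background on all of them. Closest to Id1 was F11r, a tight junction adhesion gene, with a difference of 0.0431 log2 units. F11r stood at 3.93 and 3.15 in the LcPOU5F1 clones, 5.37 and 5.75 in the LcPOU5F3 clones, and 3.35 and 3.34 in the mOct4 clones. Closest to Bmp8b were Jun, a subunit of the AP-1 transcription factor (0.276), and the desmosome gene Dsp (0.316). Closest to Id2 were the calcium-binding S100a6 (0.506) and Gadd45g, a growth arrest gene (0.621). Correlations over these 6 arrays, 0.967 to 0.999, describe points that share arrays and groups.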

How the data were processed

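RNA of 6 clones was hybridised to one-colour arrays. Per the file headers, the authors extracted spot intensity with Agilent Feature Extraction 11.0.1.1 (protocol GE1_1100_Jul11, design build mm9). That deposited intensity is on a linear scale after background subtraction and spatial detrending, and arrays were not scaled to each other. The series matrix holds these values after rounding.

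Control and outlier-flagged spots were left out, log2 intensities of 1 probe's spots were averaged, and each array's 75th percentile over non-control spots was subtracted. A probe was kept if, in 1 group or more, the scanner flagged it well above background on each array (30944 probes). Names came from RefSeq (GRCm38.p6) by unversioned accession, for 27656 probes, with 28025 unnamed. The brightest kept probe stood for each of 14595 genes. Coordinates and promoter sequences are RefSeq's on that build. Protein sequences were not used here.

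limma 3.58.1 (R 4.3.3) fitted a mean per group over the 6 arrays (lmFit, eBayes, 3 residual degrees of freedom, 5.16 after moderation), with Benjamini-Hochberg adjustment over all genes. The number of arrays limits the precision. The fit was tested on simulated data. Where a group had no array well above background, a ratio is "at least N-fold" against the higher of that array's floor and the probe's signal.

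Members and lists were chosen with earlier results of these data known. Named were all members, the 4 genes of smallest p per list, and the 2 genes most alike to each of the 3 most variable members, of which 1 is not reported here. Alternatives were normexp on spot medians (offset 50), quantile normalization, median centring, other filters, every kept probe, only the 4 arrays compared, values of the series matrix, a block for slide, the clone number as a replicate block, and each clone left out in turn.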

Additional observations from a re-analysis of the deposited data

How the results depend on the processing

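None of the 9 called member differences changed sign in any alternative: of 140 refitted values, 97 kept the call and 43 did not. These are not 140 separate fits. Leaving out a clone of the group not compared gives the same fit as the 4 arrays alone. The slide block gives the same fit as leaving out mOct4 clone 2. For LcPOU5F3 against mOct4, where 3438 genes and 5 members were called, limma called 1541 genes and 2 members with no filter on dim probes (20969 genes tested), 2194 genes with only the 4 arrays compared, and 41 genes and 0 members with the slide as a block. Leaving out 1 array, where the lone clone is assumed to vary like the other groups, gave 35 to 5109 genes and 0 to 5 members. With the clone number as a replicate block over these 4 arrays limma called 0 genes and 0 members, but clones of different constructs share only a number (correlation of same-numbered deviations -0.0966), and Id1 then had an adjusted p of 0.062.

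For LcPOU5F1 against mOct4, with 5 genes and 0 members called, the counts were 13 genes with normexp, 106 with quantile normalization, 750 genes and 2 members (Id2 and Smad6) with median centring, and 537 genes and 1 member (Smad6) with the 4 arrays alone. They were 0 genes with no filter, with the stricter filter, with every kept probe and with the slide block, and 0 to 537 genes and 0 to 1 members with 1 array left out. Higher against lower calls were 2 and 3 with the 75th percentile, 7 and 99 with quantiles and 47 and 703 with the median, which moves the median log2 fold change of all genes to -0.27 here, against 0.10, and to -0.20, against 0.21, for LcPOU5F1 against LcPOU5F3. For LcPOU5F1 against LcPOU5F3, with 2987 genes and 4 members called, there were 959 genes with no filter, 498 genes and 1 member both with the 4 arrays alone and with the slide block, and 487 to 5920 genes and 1 to 4 members with 1 array left out. With median centring every member had the same standard error, 0.45, in all 3 comparisons. A member's own spread between clones therefore did not enter its test there. Id2, whose LcPOU5F1 clones had an SD of 1.93, passed in that fit at -1.84 for LcPOU5F1 against mOct4. The causes of the changes in these counts were not tested.

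Values that changed sign belonged to members that were not called. For LcPOU5F1 against mOct4 they were Id3 at -0.02 with normexp, and Bmp4 at -0.02, Bmp8b at -0.25, Id1 at -0.12 and Id3 at -0.27 with median centring. With 1 array left out, Bmp8b ranged from -0.21 to 0.45, Id1 from -0.08 to 0.58 and Id4 from -0.03 to 1.32. For LcPOU5F3 against mOct4, Smad1 was 0.08 with quantiles and ranged from -0.23 to 0.14 with 1 array left out, and Id4 was -0.06 with the slide block and ranged from -0.39 to 0.42. For LcPOU5F1 against LcPOU5F3, Bmp7 was 0.07 with normexp, and with 1 array left out Bmp7 ranged from -0.51 to 0.50, Smad1 from -0.28 to 0.08 and Id4 from -0.04 to 1.31.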

Other observations

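ID proteins are known to restrain the onset of neuroectoderm genes in embryonic stem cells. Of 8 tested neuroectoderm genes of 10, 5 fell, 1 rose and 2 did not pass in LcPOU5F3 against mOct4 (limma with Benjamini-Hochberg adjustment), with a median log2 fold change of -1.05 beside -0.09 for all genes. Over all genes 11.8% were called lower, and 9 of 10 embryonic stem cell markers fell in the same comparison. Tubb3, a neuronal tubulin, stood at 2.24 and 2.47 in the LcPOU5F1 clones, -0.18 and -2.29 in the LcPOU5F3 clones, and 2.24 and 2.36 in the mOct4 clones, and fell 11.6-fold (-3.54 ± 0.68, adjusted p = 0.024). Otx2, a factor of epiblast and anterior neural tissue, fell 2.55-fold (adjusted p = 0.015), and Pax6, a neural and eye factor, 2.48-fold (adjusted p = 0.047), with 1 of 2 LcPOU5F3 arrays well above background. Zic1 and Ncam1 also fell, named after their values were seen. Pax3, a neural crest and muscle factor, rose 8.98-fold (adjusted p = 0.0025). In LcPOU5F1 against LcPOU5F3, 4 of the 8 were higher and 1, Pax3, at least 7.5-fold lower. Of all genes 10.5% were called higher and 9.98% lower there. The part of the Id genes or of the embryonic stem cell markers in this was not tested.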
